A study of Mus musculus with 6 samples.

Results

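The genes of the translation initiation and elongation factors were followed in lung tumors and normal lung of the RPM mouse. Members were the rows of the count table whose symbol begins with Eif and a digit from 1 to 6, or with Eef and a digit of 1 or 2, leaving out the Y-linked Eif2s3y. The rule found 63 of 22477 gene symbols. These were 45 initiation factors, 9 kinases and binding proteins, and 8 elongation factors with 1 methyltransferase among them. The last was Eif1ad, a gene named for its eIF1A-like domain and described apart. Grouping went by gene name, so Eif5a and Eif4a3 count as initiation factors and Eef1e1 as an elongation factor, whatever other roles they have. All 6 mice had the genotype Rb1/Trp53/MycT58A, in which floxed Rb1 and Trp53 are lost and a silenced Myc allele (MycT58A) is switched on once Cre is present. Cre came from Ad5CGRP-Cre, an adenovirus with a promoter of the neuroendocrine peptide gene for CGRP, which the protocols describe as given into the trachea at 8 weeks of age at 2.5e+07 PFU. Normal lung carries the same virus in its label, so that whether those mice were infected is not settled by the labels. The libraries were 2 of normal lung (normal 1 and 2) and 4 of RPM lung tumor (tumors 3, 4, 5 and 6), each from its own mouse and all in 1 batch. The protocols name arms with vehicle, entinostat and an anti-PD-1 antibody, but no label places these 6 samples in one.

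Initiation of translation brings the small ribosomal subunit, a charged initiator tRNA and the messenger RNA together at the start codon. The eIF4 factors bind the cap and unwind the leader, eIF2 carries the initiator tRNA, eIF3 holds the assembly on the small subunit, and eIF5 and eIF5B lead to the joining of the large subunit. Elongation then needs eEF1A to deliver each charged tRNA and eEF2 to move the ribosome by a codon. Initiation is held back at 2 well-known points, by kinases that phosphorylate the alpha subunit of eIF2 and by proteins that occupy eIF4E, and the Myc transcription factor is known as a regulator of ribosome and translation genes.

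Total counts were 91049413 to 99122494 in normal lung and 54735438 to 70817440 in tumors. All 8 neuroendocrine markers examined rose in the tumors, with a summed level of 872 to 1296 CPM (counts per 1000000 counts) against 20.2 to 28.8, and Neurod1 was at 0 in normal 1. All 6 alveolar type 2 markers fell, to a sum of 57.0 to 695 CPM from 19488 to 21148, as did all 5 alveolar type 1 markers (52.7 to 121 from 3745 to 4067), all 3 club cell markers (51.3 to 263 from 26134 to 28942), all 6 endothelial markers (50.4 to 81.0 from 3037 to 3352) and all 8 leukocyte markers (214 to 1098 from 4910 to 5258). Of 5 fibroblast markers 3 fell (306 to 1017 from 1736 to 1784), and of 8 striated muscle markers 6 fell (7.07 to 473 from 302 to 693). RNAs without a poly(A) tail took 5.88% to 14.4% of tumor counts and 0.288% to 0.626% of normal counts. With the tailless RNAs removed, all 42 members called below kept their call and direction. The part of the marker shifts in the results below was not tested. In bulk tissue, fewer cells of a type and less RNA per cell cannot be told apart.

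Most translation factor genes rose in the tumors. Of 62 members tested, 39 rose and 3 fell (edgeR quasi-likelihood test, adjusted p under 0.05 over all genes), or 62.9% and 4.84%, against 31.3% and 32.6% of all 18027 genes tested. Initiation factors accounted for 32 of the rises among 44 tested. With the near-identical copies Eif3j1 and Eif3j2 counted once, 31 of 43 initiation factors and 38 of 61 members rose. Elongation factors accounted for 6 of the rises among 8 tested, and no initiation or elongation factor fell. At an unadjusted p under 0.05 none of these 2 groups was lower either, nor with DESeq2 or limma voom. Among the 9 kinases and binding proteins none rose, also at an unadjusted p under 0.05, with DESeq2 or with voom, and 3 fell. Median log2 fold changes were 1.00 for initiation factors, 1.63 for elongation factors and -0.16 for kinases and binding proteins, beside 0.02 over all genes tested. Together the members took 1.31% and 1.39% of all counts in normal 1 and 2, and 3.08%, 3.42%, 3.08% and 3.03% in tumors 3 to 6. Eef1a1 alone made up 0.489% and 0.531% of counts in normal lung and at least 1.17% in every tumor. The member left untested, the oocyte paralog gene Eif4e1b, had 1 count in normal 1, 1 in tumor 3 and 0 in the other libraries.

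**Figure D1:**
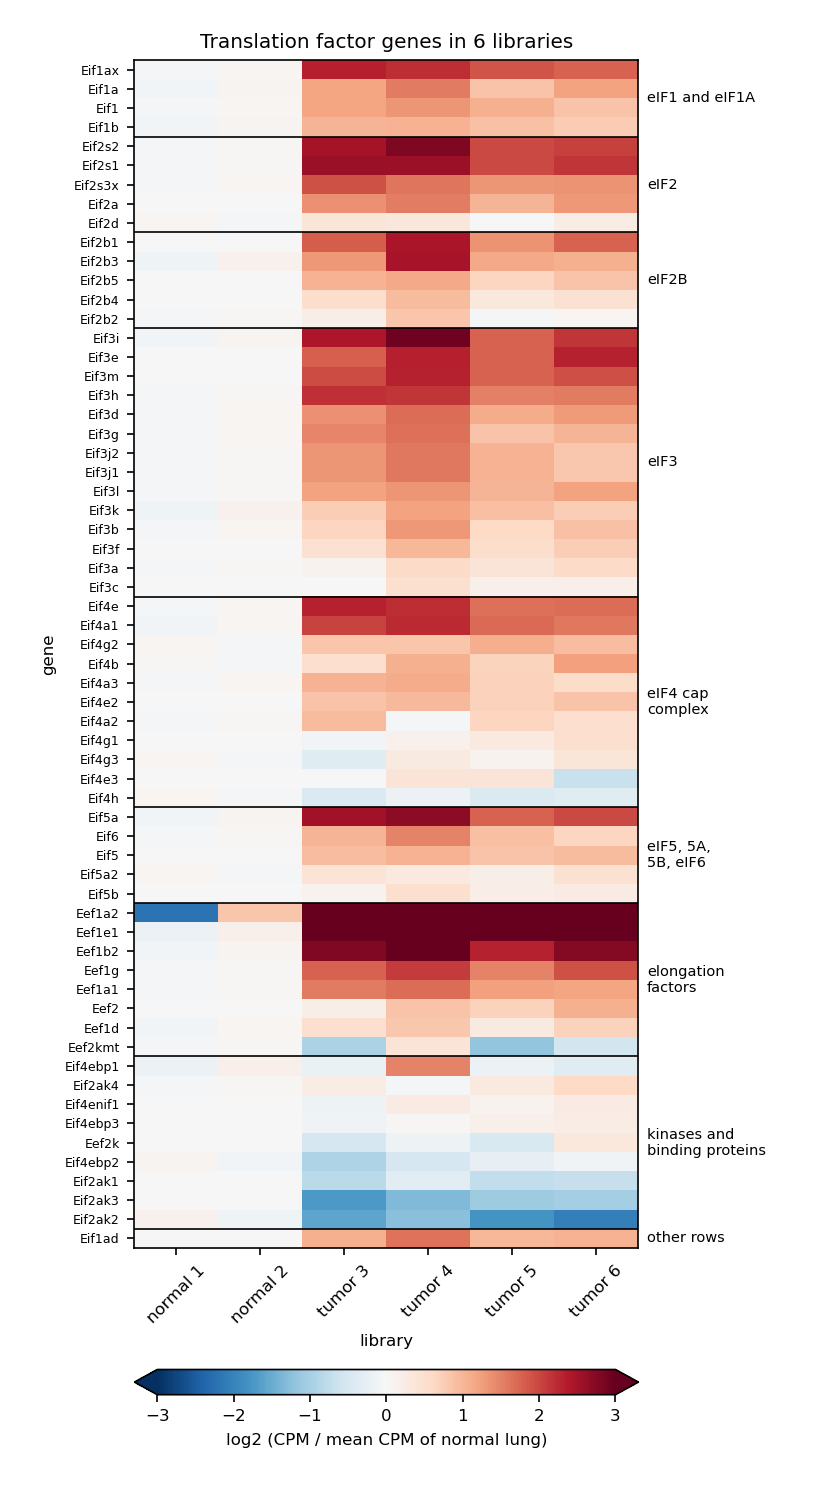
Each row is a tested gene and each column a library, colored by the log2 ratio of its CPM to the mean CPM of the 2 normal libraries, with lines between role groups and colors saturating at 3 in either direction. The 4 tumor columns are red for most initiation and elongation factors, Eef1a2 differs between the 2 normal libraries, and the blue rows lie mainly among the kinases and binding proteins.

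All 4 genes of the scanning factors eIF1 and eIF1A rose, beside 31.3% of all genes tested. Eif1, whose protein guards start codon choice, stood at 101 and 109 CPM in normal 1 and 2 and at 238, 263, 221 and 188 CPM in tumors 3 to 6, so that every tumor lay above both normal libraries (log2 fold change 1.12 ± 0.18 SE, adjusted p = 0.00205). Eif1ax, the X-linked gene of eIF1A, went from 50.5 and 55.1 CPM to 265, 244, 194 and 180 CPM (2.06 ± 0.22, adjusted p = 0.000381). Its autosomal counterpart Eif1a and the eIF1 paralog Eif1b rose 2.34-fold and 1.91-fold. Eif1ad rose 2.31-fold, at 55.7, 81.8, 52.6 and 54.8 CPM in tumors 3 to 6 against 26.3 and 26.6 in normal lung. Its exons share 16.7% of their length with Banf1 on the other strand, whose mean went from 33.4 to 159 CPM, and reads of overlapping genes cannot be told apart here.

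All 3 subunit genes of eIF2 rose, beside 31.3% of all genes tested. The alpha subunit gene Eif2s1, the target of the eIF2 kinases, was at 58.6 and 60.7 CPM in normal lung and at 357, 356, 237 and 263 CPM in tumors 3 to 6 (log2 fold change 2.35 ± 0.25, adjusted p = 0.000339). The beta subunit gene Eif2s2 was at 66.8 and 69.4 CPM against 386, 476, 269 and 281 CPM (2.37 ± 0.30, adjusted p = 0.000666). Groups did not overlap for either gene, and tumors 3 and 4 were the higher tumors for both. The gamma subunit gene Eif2s3x rose 2.96-fold, from 45.1 and 48.5 CPM to 176, 142, 118 and 119 CPM. Tumor 3, the highest for this X-linked gene, had 0 counts of its Y-linked copy Eif2s3y and 1690 CPM of Xist, the RNA of the inactive X chromosome, while the other 5 libraries had 42.1 to 66.7 CPM of Eif2s3y and at most 2.60 of Xist. Without tumor 3 the Eif2s3x call stood. Eif2a, which can bring the initiator tRNA without eIF2, rose 2.49-fold. Eif2d, with a like role, was at 31.6 to 41.3 CPM in tumors and 30.5 and 33.5 in normal lung and did not pass (adjusted p = 0.263).

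The exchange factor eIF2B, which reloads eIF2 with GTP, changed unequally over its 5 subunits. Eif2b1 rose 3.74-fold, Eif2b3 3.08-fold and Eif2b5, the catalytic epsilon subunit, 1.90-fold. Eif2b1 was at 23.5 and 24.2 CPM in normal lung and at 83.6, 131, 60.4 and 81.5 CPM in tumors 3 to 6. Eif2b3 was at 12.9 and 15.5 CPM against 35.1, 78.8, 31.0 and 29.5 CPM, with tumor 4 far above the other 3. It did not pass once normal 1 was left out (1.49 on the log2 scale) or once normal 2 was (1.74). Eif2b4 did not pass (0.58 ± 0.22, adjusted p = 0.0559), nor did Eif2b2 (0.30 ± 0.28, adjusted p = 0.380). Every tumor lay above both normal libraries for Eif2b4, and this gene passed with the other scalings, the stricter filter, DESeq2, voom, the removal of tailless RNAs and without tumor 4, 5 or 6 (0.44 to 0.71). Tumor 4 was the highest library for each of the 5 subunits.

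Of 14 rows of eIF3, the scaffold of the initiation complex, 12 rose (85.7%, against 31.3% of all genes tested) and 2 did not pass. Their log2 fold changes ran from 0.21 to 2.38. Eif3i, of the module at the mRNA entry side, was at 68.5 and 76.5 CPM in normal lung and at 392, 548, 249 and 319 CPM in tumors 3 to 6 (2.38 ± 0.35, adjusted p = 0.00136). Eif3e was at 132 and 129 CPM against 449, 653, 443 and 646 CPM (2.07 ± 0.25, adjusted p = 0.000599), and Eif3m at 88.0 and 89.3 CPM against 345, 436, 304 and 341 CPM (2.01 ± 0.20, adjusted p = 0.000296). In all 3 genes the lowest tumor was over 3-fold above the higher normal library. Eif3h rose 3.71-fold, and Eif3d, a subunit that can itself bind the cap of some mRNAs, 2.59-fold. The core subunit genes Eif3a and Eif3c were the 2 that did not pass. Eif3c stood at 243 and 246 CPM in normal lung and at 244, 340, 273 and 273 CPM in tumors (0.21 ± 0.18, adjusted p = 0.337), and Eif3a at 313 and 327 CPM against 346, 473, 419 and 480 CPM (0.42 ± 0.19, adjusted p = 0.0883). Eif3a passed with upper quartile scaling, the stricter filter, DESeq2, the removal of tailless RNAs and without tumor 3 (0.52). Without normal 1, Eif3b, Eif3f and Eif3k did not pass (0.81, 0.70 and 0.77), nor did Eif3g at a 2.33-fold difference. Without normal 2, Eif3b and Eif3f did not (0.94 and 0.66). Eif3j1 and Eif3j2 are near-identical copies whose counts differed by 2 to 6 in every library, so their rise (2.32-fold and 2.33-fold) rests on the same reads and counts as 1. Exons of Eif3d share 32.9% of their length with an antisense gene, those of Eif3j1 20.5% with Spg11, and those of Eif3m 6.4% with Ccdc73, whose mean went from 5.78 to 24.2 CPM.

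Of 11 eIF4 genes tested 6 rose (54.5%, against 31.3% of all genes tested), with Eif4e and Eif4a1 at the top. The other 5 did not pass, among them the scaffold gene Eif4g1. Eif4e, the cap-binding protein gene, was at 57.0 and 62.3 CPM in normal lung and at 297, 275, 187 and 191 CPM in tumors 3 to 6 (log2 fold change 1.99 ± 0.27, adjusted p = 0.000858). Eif4a1, the main RNA helicase, was at 288 and 318 CPM against 1238, 1429, 979 and 900 CPM (1.91 ± 0.26, adjusted p = 0.00094). For both genes the groups were wide apart, with the lowest tumor over 2-fold above the higher normal library. Eif4a2, the second helicase gene, was at 435 and 464 CPM against 871, 438, 708 and 636 CPM, so tumor 4 lay between the normal libraries and the gene did not pass (0.56 ± 0.29, adjusted p = 0.125). Without tumor 4 it passed (0.72). Its exons share 5.5% of their length with Rfc4 on the other strand, whose mean went from 6.34 to 97.3 CPM.

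Among the other cap complex genes, Eif4g2, which codes for the eIF4G relative DAP5 that lacks the eIF4E site, rose 1.89-fold, the helicase helper Eif4b 1.86-fold, Eif4a3 of the exon junction complex 1.83-fold and the repressive cap-binding protein gene Eif4e2 1.80-fold. Eif4a3 and Eif4b did not pass without normal 1 (0.79 and 0.91) or normal 2 (0.92 and 0.85), nor Eif4g2 without normal 2 (0.86). Eif4g1 was at 371 and 375 CPM in normal lung and at 353, 409, 453 and 516 CPM in tumors (0.22 ± 0.19, adjusted p = 0.358), and its paralog Eif4g3 had a log2 fold change of 0.12 ± 0.22. Eif4e3 ranged from 24.5 CPM in tumor 6 to 51.2 in tumor 5, around 39.0 in both normal libraries (0.09 ± 0.31, adjusted p = 0.809). Its sign turned without tumor 4 (-0.02) or tumor 5 (-0.02). Eif4h, another helper of eIF4A, was below both normal libraries in every tumor, at 283, 339, 282 and 297 CPM against 398 and 368, but passed only without tumor 4 (-0.41), and its main value was -0.35 ± 0.15 (adjusted p = 0.0819).

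Promoters of the members were searched for CACGTG, the core E-box that Myc and its partner Max are known to bind and which reads the same on both strands, in the 250 bases before each RefSeq start (GRCm38.p6). It was present for 11 of 49 members with a promoter in the table (22.4%), against 9.03% of 13120 tested genes and 6.86% of all 27025 genes. Of members that rose 6 of 29 had it, and of the other members 5 of 20. The genes below set the strongest risers of the cap complex and eIF5A beside a paralog or partner that did not pass, with the elongation gene Eef2 added. Other members with a match are not shown, among them Eif4h, which did not pass. Capitals mark the motif, each line runs 5′ to 3′ on the strand of the gene, and the distance is from the first base of the motif to an annotated start. Eif5a and Eif5a2 had 1 further match each, not shown.
Eif4e, 64 bases before the start, chr3:138527192-138527221, plus strand: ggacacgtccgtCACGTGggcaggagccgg
Eif4e, 228 bases before the start, chr3:138527028-138527057, plus strand: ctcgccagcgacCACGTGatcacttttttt
Eif4a1, 189 bases before the start, chr11:69672595-69672624, minus strand: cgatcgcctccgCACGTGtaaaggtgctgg
Eif5a, 74 bases before the start, chr11:69921443-69921472, minus strand: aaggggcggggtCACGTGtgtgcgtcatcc
Eif5a2, 117 bases before the start, chr3:28781148-28781177, plus strand: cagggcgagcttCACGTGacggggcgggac
Eif4g1, 54 bases before the start, chr16:20672661-20672690, plus strand: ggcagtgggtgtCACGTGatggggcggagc
Eef2, 43 bases before the start, chr10:81176576-81176605, plus strand: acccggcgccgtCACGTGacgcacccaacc
The 6 letters stood before genes that rose 3.75-fold to 4.89-fold (Eif4e, Eif4a1 and Eif5a) and before genes that did not pass (Eif5a2, Eif4g1 and Eef2). A match describes the letters in this window and shows no binding.

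The genes of eIF5, eIF5A, eIF5B and eIF6 split by gene. Eif5a, whose protein carries hypusine and keeps ribosomes moving through hard sequences, was at 174 and 193 CPM in normal lung and at 1057, 1182, 627 and 728 CPM in tumors 3 to 6 (log2 fold change 2.29 ± 0.33, adjusted p = 0.00117). Its paralog Eif5a2 was at 37.6 and 35.1 CPM against 48.2, 44.6, 40.9 and 49.9 CPM and did not pass (0.34 ± 0.15, adjusted p = 0.0933), although every tumor lay above both normal libraries. It passed with upper quartile scaling (0.46), the stricter filter (0.42) and the removal of tailless RNAs (0.41). Eif5, the factor that makes eIF2 hydrolyze GTP, rose 1.92-fold, from 208 and 203 CPM to 389, 427, 371 and 395 CPM, among the tightest sets of tumor values. Eif6, which keeps the large subunit from joining too soon, rose 2.07-fold, which passed neither without normal 1 (0.99) nor without normal 2 (1.08). Eif5b, which joins the subunits, did not pass (0.27 ± 0.16, adjusted p = 0.173), and 15.9% of its exon length overlaps Rev1, whose mean went from 34.4 to 117 CPM.

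**Figure D2:**
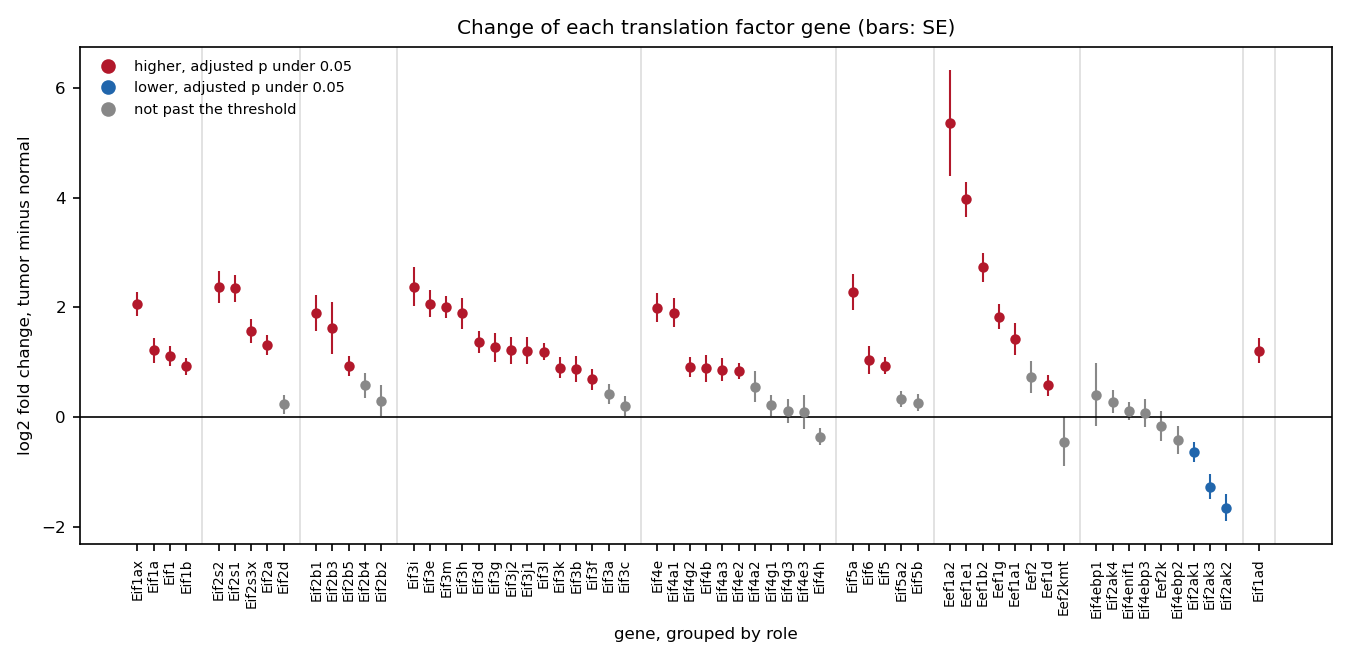
Log2 fold change of each tested gene, tumor minus normal, with its SE, ordered by role and size, where red passed the threshold upward, blue downward and grey did not pass. The initiation factors run from 2.38 (Eif3i) to -0.35 (Eif4h), with the eIF1 and eIF1A genes all at 0.93 or above, the elongation factors reach 5.37 with Eef1a2, and the 3 blue points are kinases of eIF2.

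Among elongation factors, 6 of 8 rose (75%, against 31.3% of all genes tested), 5 of them at least 2-fold. Eef1a1, the gene of the tRNA-delivering factor, was at 4921 and 5214 CPM in normal lung and at 14970, 16084, 11801 and 11496 CPM in tumors 3 to 6 (log2 fold change 1.42 ± 0.29, adjusted p = 0.00489). It has many processed pseudogenes, so its counts are uncertain in how reads were split. Eef1a2, the paralog known from muscle and neurons, was at 1.17 and 9.61 CPM against 257, 131, 235 and 265 CPM, with no overlap (5.37 ± 0.97, adjusted p = 0.00306). The 2 normal libraries lay far apart in this gene. Leaving out normal 1 gave 4.52 on the log2 scale, leaving out normal 2 gave 7.55, and voom gave 6.02. The striated muscle markers summed to 302 and 693 CPM in normal 1 and 2 and to 42.5, 27.4, 7.07 and 473 CPM in tumors 3 to 6, and the neuroendocrine markers to 20.2 and 28.8 CPM against 1046, 1111, 1296 and 872 CPM. Tumor 5 had the lowest muscle sum with 235 CPM of Eef1a2, tumor 6 the highest muscle sum of the tumors and the highest Eef1a2. Normal 2 was above normal 1 in both. Different genes made up these sums, so the sums do not show a shared kind of muscle. In tumor 6, Acta1 was at 321 CPM, Ckm at 146 and Myh6 at 0.0150. In normal 1 and 2, Acta1 was at 0.152 and 0.399 CPM, Ckm at 2.02 and 9.47, and Myh6 at 64.7 and 239. The part of muscle in these levels was not tested.

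The exchange subunits of eEF1, which recharge eEF1A with GTP, rose to different degrees. Eef1b2 was at 160 and 178 CPM in normal lung and at 1156, 1339, 844 and 1150 CPM in tumors 3 to 6 (2.73 ± 0.26, adjusted p = 0.000224). Eef1g was at 258 and 271 CPM against 901, 1131, 738 and 991 CPM (1.83 ± 0.23, adjusted p = 0.000675). Eef1d rose by 0.58 ± 0.19 on the log2 scale (adjusted p = 0.0327), the least of the 6, and did not pass without normal 1 (0.50) or normal 2 (0.64). Eef1e1, a part of the multi-synthetase complex that carries an eEF1 name, was at 8.63 and 10.8 CPM against 183, 180, 103 and 142 CPM (3.97 ± 0.33, adjusted p = 0.000139), a 15.6-fold rise. Eef2, the translocase, was at 1667 and 1664 CPM against 1896, 3030, 2677 and 3479 CPM, above normal lung in every tumor, with adjusted p = 0.0584 (0.73 ± 0.29). It passed with RLE scaling, upper quartile scaling, the stricter filter, DESeq2, voom, the removal of tailless RNAs and without tumor 3 (0.70 to 0.88). Eef2kmt, a methyltransferase of eEF2, was at 22.1 and 23.3 CPM against 11.8, 29.7, 9.95 and 15.4 CPM and did not pass (-0.44 ± 0.45, adjusted p = 0.411), except without tumor 4 (-0.87). Of its exon length 21.8% overlaps Alg1.

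Levels between genes were compared per kilobase of exon length, taken from GENCODE M21. Eef1a1 was the highest of the 63 members in both tissues, at 2825 ± 115 CPM per kb (SD, n = 2) in normal lung and 7574 ± 1275 (n = 4) in tumors, followed in both by Eef2 (539 ± 0.893 and 897 ± 217) and Eif4a1 (171 ± 11.8 and 641 ± 137). Below these the order differed between tissues. Eef1a2 ranked 62 in normal lung and 21 in tumors, at 107 ± 29.7 CPM per kb, still far below Eef1a1. Eef1e1 moved from rank 60 to 29 and Eif2s2 from 28 to 14. Eif4a2 and Eif4h, ranked 5 and 6 in normal lung (141 ± 6.47 and 141 ± 7.67), ranked 11 and 20 in tumors (207 ± 56.2 and 110 ± 9.76). In tumors the 3 lowest ranks above Eif4e1b were Eif2ak2 (3.65 ± 0.853), Eef2k (4.19 ± 1.17) and Eif4ebp2 (4.29 ± 1.01), which did not differ beyond their spread.

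**Figure D3:**
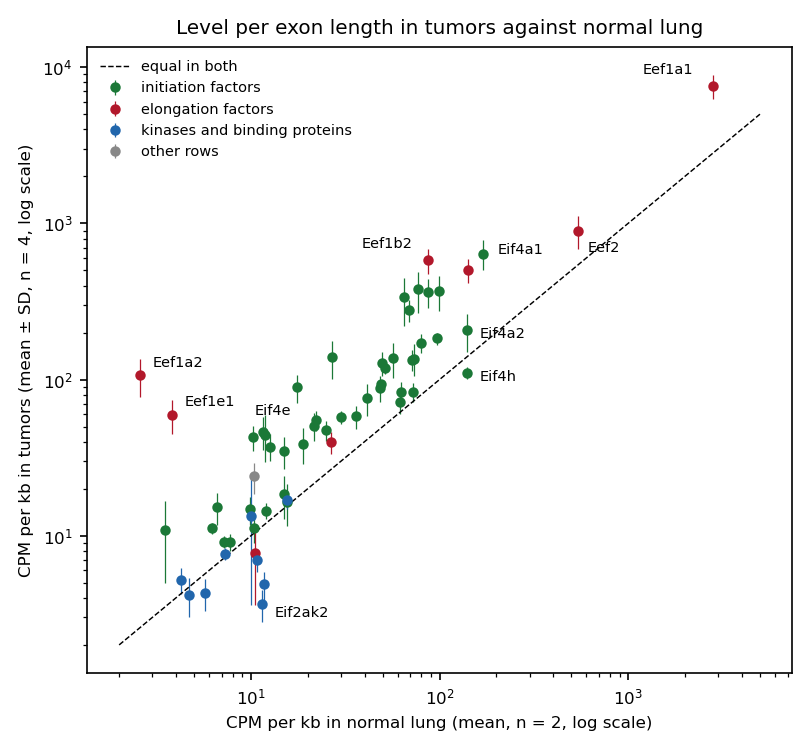
Mean CPM per kilobase of exon length in tumors (n = 4, bars SD) against the mean in normal lung (n = 2), both on log scales, colored by group, without Eif4e1b, and with a dashed line of equal level. Most initiation and elongation factors lie above the line, Eef1a1 is at the upper end in both tissues, and Eif2ak2 is the lowest point in tumors.

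Of the kinases and binding proteins, 3 of 9 fell (33.3%), a share near the 32.6% of all genes tested, and all 3 were kinases of eIF2. Eif2ak2, the gene of PKR, which senses double-stranded RNA and is induced by interferon, was at 53.7 and 44.8 CPM in normal lung and at 16.3, 20.5, 14.2 and 11.8 CPM in tumors 3 to 6 (log2 fold change -1.65 ± 0.24, adjusted p = 0.00131). Leukocyte markers summed to 5258 and 4910 CPM in normal 1 and 2 and to 1098, 626, 656 and 214 CPM in tumors 3 to 6, and their part in this fall was not tested. Eif2ak3, the gene of PERK, the kinase of the unfolded protein response, was at 55.7 and 57.4 CPM against 17.1, 22.6, 27.1 and 27.7 CPM (-1.26 ± 0.22, adjusted p = 0.00264). Eif2ak1, the gene of the heme-regulated kinase HRI, was at 47.1 and 46.5 CPM against 26.5, 37.7, 28.2 and 28.8 CPM (-0.63 ± 0.19, adjusted p = 0.0228). Eif2ak1 did not pass with normal 1 (-0.63), normal 2 (-0.65), tumor 5 (-0.59) or tumor 6 (-0.52) left out, and 11.3% of its exon length overlaps Aimp2, whose mean went from 12.6 to 53.4 CPM. Eif2ak4, the gene of GCN2, which responds to uncharged tRNA, had tumors on both sides of normal lung (30.4 and 31.7 CPM against 36.2, 29.9, 38.4 and 47.4) and did not pass (0.29 ± 0.21, adjusted p = 0.265).

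None of the binding proteins of eIF4E passed. Eif4ebp1, whose protein sequesters eIF4E until mTOR phosphorylates it, was at 17.7 and 22.1 CPM in normal lung and at 17.3, 55.6, 17.8 and 15.6 CPM in tumors 3 to 6. Tumor 4 was the one tumor above both normal libraries, and the log2 fold change was 0.41 ± 0.58 with it (adjusted p = 0.552) and -0.23 without it. Eif4ebp2 was at 34.8 and 31.3 CPM against 17.3, 23.4, 27.9 and 30.7 CPM, below normal lung in every tumor but not past the threshold (-0.41 ± 0.25, adjusted p = 0.191). Eif4ebp3 stayed between 5.05 and 6.28 CPM in all libraries, with 67.3% of its exon length shared with another annotated gene. Eif4enif1, the transporter of eIF4E, did not pass (0.12 ± 0.16, adjusted p = 0.534), nor did Eef2k, the kinase that inhibits eEF2 (-0.16 ± 0.27, adjusted p = 0.621).

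**Figure D4:**
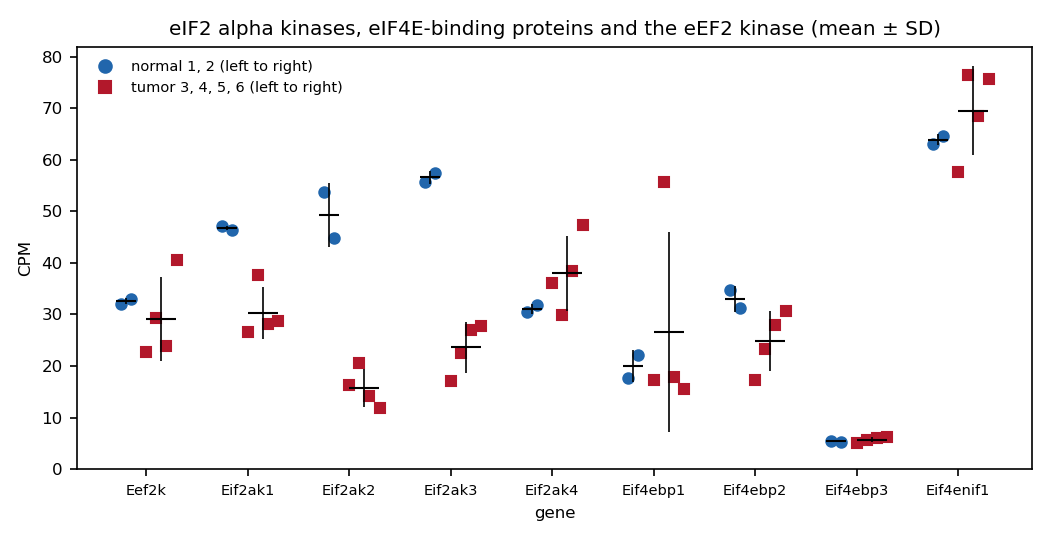
CPM of the 9 kinases and binding proteins in each library, normal 1 and 2 in blue and tumors 3 to 6 in red from left to right, with the mean and SD of each group in black. Eif2ak1, Eif2ak2 and Eif2ak3 have all 4 tumors below both normal libraries, and Eif4ebp1 has tumor 4 at 55.6 CPM with the other 3 tumors between 15.6 and 17.8.

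Ratios within 9 pairs of paralogs or partners do not depend on the scaling of the libraries. The log2 ratio of Eif4a1 to Eif4a2 was -0.59 and -0.55 in normal 1 and 2 and 0.51, 1.71, 0.47 and 0.50 in tumors 3 to 6, a mean difference of 1.37. That of Eif4e to its inhibitor gene Eif4ebp2 rose from 0.71 and 0.99 to 4.10, 3.56, 2.74 and 2.63, a mean difference of 2.40, and that of Eif4e to Eif4ebp1 was 1.76 greater. Eif5a gained on Eif5a2 by 1.91, Eif4e on Eif4e3 by 1.93 and Eif1ax on Eif1 by 0.94, while Eif4g1 lost 0.72 against Eif4g2. The ratio of Eef1a1 to Eef1a2 was 12.01 and 9.08 in normal lung and 5.86, 6.94, 5.65 and 5.44 in tumors, a difference of -4.57, or -3.11 without normal 1 and -6.04 without normal 2. In these 8 pairs the groups did not overlap, which gives an exact two-sided permutation p of 0.0667 (0.075 adjusted over the 9 pairs). This is the smallest p that 15 arrangements of 6 libraries allow, so no pair could pass 0.05. How often the groups fail to overlap over all genes tested was not counted, here or for the single genes above. Eif4ebp1 to Eif4ebp2 overlapped between groups (difference 0.64, exact permutation p = 0.667), and was 0.41 without normal 1 and 0.19 without tumor 4. The ratios reuse the values behind the single-gene calls, and several pairs share Eif4e, so they are not separate results.

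**Figure D5:**
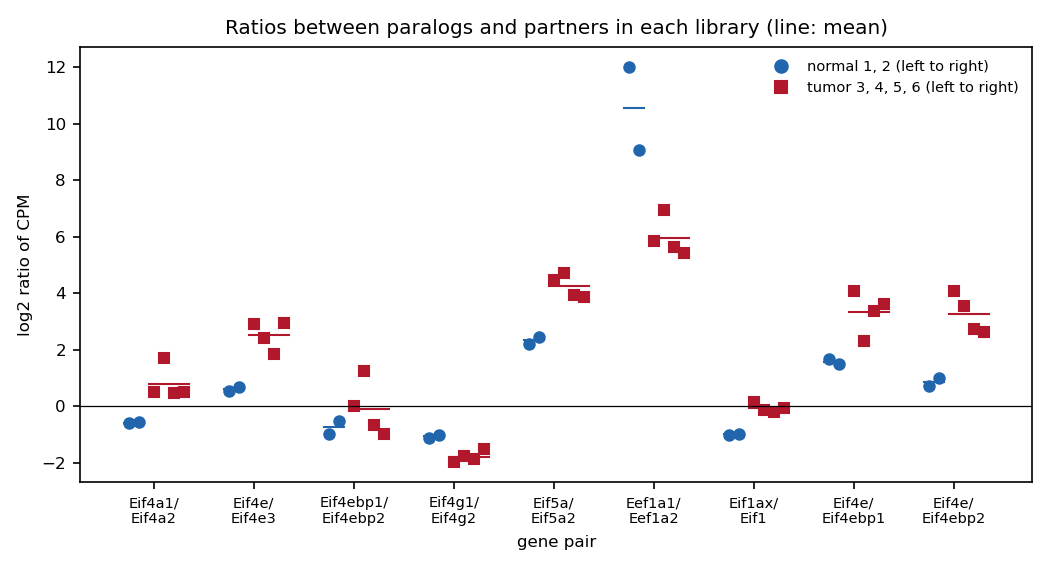
Log2 ratio of CPM for 9 gene pairs in each library, normal 1 and 2 in blue and tumors 3 to 6 in red from left to right, with group means as lines. Eif4e gained on both binding protein genes in all 4 tumors, and tumor 4 stands above the other tumors for Eif4a1 to Eif4a2 and for Eif4ebp1 to Eif4ebp2.

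Genes that work beside these factors but carry other names were listed in 6 groups. Beside their counts, 31.3% of all genes tested rose and 32.6% fell. Shares that rose were 88.9% for hypusine and diphthamide, 85.7% for termination and recycling and 66.7% for scanning and mRNA binding. Calls over all genes also became fewer without normal 1 or normal 2. Of 9 genes that make hypusine on eIF5A and diphthamide on eEF2, 8 rose and none fell, also with DESeq2, voom or at an unadjusted p under 0.05 (median log2 fold change 1.36). Dhps, which begins hypusine synthesis, rose 3.04-fold, and Dph3 and Dph5, of diphthamide synthesis, 3.04-fold and 3.81-fold. Without normal 1 this list had 5 that rose. Of 7 termination and recycling genes 6 rose (median 1.13), among them the release factor gene Gspt1 (2.93-fold), Gspt2 (4.73-fold) and Abce1, which splits ribosomes after termination (2.88-fold), and 4 rose without either normal library. None fell, with 1, Pelo, lower at an unadjusted p under 0.05, and 1 lower with DESeq2 and with voom. Of 15 genes of scanning and mRNA binding 10 rose and 1 fell (median 0.85), or 5 and 1 without either normal library. Ncbp1 of the nuclear cap-binding complex rose 2.97-fold, Larp4 2.30-fold and Mcts1, a partner in reinitiation, 2.45-fold, while the helicase gene Dhx29 was 1.94-fold lower.

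Of 12 mTOR and MNK genes 3 rose, 2 fell and 7 did not pass (median -0.01), or 25% and 16.7% against 31.3% and 32.6% of all genes tested. The S6 kinase gene Rps6kb1 rose 2.05-fold, and Rheb and Mlst8 1.91-fold and 1.56-fold, the latter 2 not without normal 1 (0.91 and 0.68) or normal 2 (0.92 and 0.58). Deptor, an mTOR inhibitor, was 5.16-fold lower, and Mknk2, a kinase of eIF4E, fell from 181 ± 1.20 to 43.0 ± 12.5 CPM (SD, n = 2 and 4; adjusted p = 0.000894). Of 9 genes of the eIF2 phosphatase and the stress response downstream of eIF2, 5 rose and 3 fell. These are 55.6% and 33.3%, the share that fell being near that of all genes (32.6%). Without normal 1, 1 rose and 2 fell, and without normal 2, 2 rose and 2 fell. Asns, of asparagine synthesis, rose 5.19-fold, and Atf4, the transcription factor translated under eIF2 phosphorylation, and Trib3 2.17-fold and 2.09-fold. Atf4 did not pass without normal 1 (1.03), nor Trib3 without normal 1 (1.11) or normal 2 (0.99). Ppp1r15a, which directs the phosphatase to eIF2, was 2.39-fold lower, with Sesn2 2.32-fold and Ddit3 1.79-fold lower. Sesn2 did not pass without normal 1 (-0.96), nor Ddit3 without normal 2 (-0.59), tumor 5 (-0.81) or tumor 6 (-0.70). Of 11 mitochondrial and selenocysteine factors 7 rose (63.6%, against 31.3% of all genes tested) and none fell (median 0.75). Both counts were the same at an unadjusted p under 0.05, with DESeq2 and with voom. By smallest p these began with Mtif2 (2.02-fold), Mtrf1 (2.63-fold) and Mtif3 (2.60-fold). This list had 2 and 3 that rose without normal 1 and normal 2, and Mtif3 did not pass without normal 1 (1.30).

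The levels of the members differed among the 4 tumors. Tumor 4 had the highest CPM of the 4 for 40 of 62 tested members and tumor 5 the lowest for 30. Such counts were not made over all genes, so whether they are particular to the members was not tested. The summed CPM of all members was 32473, 36775, 27952 and 29839 in tumors 3 to 6 against 13206 and 13635 in normal lung. The highest tumor exceeded the lowest by 3.56-fold for Eif4ebp1, 2.99-fold for Eef2kmt and 2.67-fold for Eif2b3, and by 1.15-fold for Eif5.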

How the data were processed

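RNA of flash-frozen lung tumor and normal lung was poly(A) selected and made into NEBNext Ultra II libraries, per the labels' protocols. The authors deposited raw gene counts from TPMCalculator, per the labels. STAR 2.5.4a, Trim Galore, Trimmomatic 0.36 and the build mm9 stand in the submitters' processing notes, without roles. No source used here gives the strand setting or the gene annotation. Tumor and normal lung were compared by edgeR (4.0.16, R 4.3.3) with its quasi-likelihood test, tissue being the only term, after filtering (minimum count 10, total 15) and TMM scaling. The Benjamini-Hochberg adjustment ran over 18027 genes, with a threshold of 0.05. CPM use TMM-scaled library sizes, and log2 ratios a prior count of 2. The SE of a log2 fold change was its absolute value divided by the square root of the test's F value. With 2 normal libraries, p-values rest on few animals. On simulated counts of 17805 genes tested, the test recovered 1 of 49 2-fold, 20 of 50 4-fold and 42 of 47 16-fold changes. Few genes were changed in the simulation, while in the data 31.3% of genes tested rose and 32.6% fell. The adjustment is stricter where few genes change, so these shares do not give the reach of the test in the data. They are also over genes of every level and spread and do not describe the members. Of the members, 39 were called higher, 28 of those at least 2-fold.

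The alternatives comprised 3 scalings (RLE, upper quartile, total counts), no low-count filter, a stricter one (1 CPM throughout a group), limma voom (3.58.1), DESeq2 (1.42.0), removal of tailless RNA rows, a prior count of 0.5 for ratios, and leaving out each library. Named genes were up to 5 per role group and direction by smallest p, the pairs, the complexes' subunits, and 3 per direction of each other list. The gene groups, lists and members were chosen with earlier results of these data known. Exon lengths and overlaps came from GENCODE M21 (GRCm38), and promoter windows from RefSeq on GRCm38.p6, where 49 members matched. No coordinate was taken from the deposited counts, which name mm9.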

Additional observations from a re-analysis of the deposited data

Results flagged for a closer look

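Among 62 tested members and 9 ratios, 4 had a tumor library whose gap to the nearest of the others exceeded Dixon's 95% critical share of the group's range, a rule by which chance alone marks about 1 in 20 groups. All 4 concerned tumor 4. Eif4ebp1 was at 55.6 CPM there and at 15.6 to 17.8 CPM in the other tumors. Eif2b3 was at 78.8 CPM against 29.5 to 35.1. Eif1ad was at 81.8 CPM against 52.6 to 55.7. The log2 ratio of Eif4a1 to Eif4a2 was 1.71 against 0.47 to 0.51.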

How the results depend on the processing

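Of 42 members called, all 42 kept call and direction under each of the 8 alternatives of scaling, filter, tool and tailless RNA removal, and up to 4 more passed. Without normal 1 or normal 2, 32 and 33 of them remained, with the spread of the single normal library taken from the tumors. Over all genes, 5638 rose with every library in, 3373 without normal 1 and 3740 without normal 2. The number of initiation factors that rose ran from 24 to 35, that of elongation factors from 5 to 7, and that of kinases and binding proteins that fell from 2 to 3. Leaving out libraries gave 0 to 1 initiation factor that fell and 0 to 1 elongation factor that fell, the 1 in each case without tumor 4 (Eif4h and Eef2kmt). Eif4e3 ran from -0.0195 to 0.363 and Eif4ebp1 from -0.234 to 0.678 over the libraries left out. The cause was not tested. Upper quartile scaling moved the median log2 fold change of all genes by 0.12. Counting Eif3j1 and Eif3j2 once, chosen after seeing the data, gave 31 initiation factors that rose. Median log2 fold changes ran from 0.91 to 1.16 for initiation factors, 1.53 to 1.75 for elongation factors and -0.27 to -0.04 for kinases and binding proteins. No paired analysis was possible because the labels give the groups no shared replicate number.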
